A study of Saccharomyces cerevisiae with 15 samples.

Results

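ITS1 (internal transcribed spacer 1) is the stretch of the 35S ribosomal RNA gene between 18S and 5.8S. Its members here were the 361 positions that follow position 2500, the last base of 18S, up to the first base of 5.8S, of the 6858 positions of the 35S gene in the deposited tables. Positions are counted below from that last base of 18S, so that position 1 is the first base of ITS1, and each had a value in all 15 libraries. The libraries were NET-seq (native elongating transcript sequencing) of RNA polymerase I (Pol I) in wild-type *Saccharomyces cerevisiae*: Pol I was immunoprecipitated from lysate of cells broken while frozen, and the 3′ ends of the RNA that came with it were sequenced, so that each read gave the last base of 1 RNA. There were 5 groups of 3 libraries. The CaCl2 group was lysate with 5 mM CaCl2 for 2 min at 37 °C, and the CaCl2 + MNase group had MNase (micrococcal nuclease, which cuts DNA and RNA and needs calcium) at 100 U/µL as well. The MnCl2 group was lysate with 10 mM MnCl2 for 20 min on ice and 30 min more on ice after EDTA, and the MnCl2 + DNase I group had DNase I (which cuts DNA) at 100 U/mL as well. EDTA was added to 5 mM in those 4 groups, and untreated lysate had no cation, no incubation and no EDTA. A cation and its incubation therefore cannot be told apart. The study's methods describe a culture for each replicate of the untreated wild type. For the 4 treated groups no source used here says whether the 3 libraries came from separate cultures, so p-values measure the spread between libraries, which may be technical.

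Pol I transcribes 18S, 5.8S and 25S as 1 precursor, and the spacers between them are removed. In budding yeast ITS1 is cut while the RNA is still being made as well as after release: site D is the 3′ end of mature 18S, a cut at site A2 within ITS1 parts the small-subunit precursor from the large-subunit precursor, and RNase MRP cuts at site A3 nearer to 5.8S. A read in ITS1 can thus be the 3′ end of an RNA held by an elongating Pol I or the 3′ end of a cut RNA that was purified with it, and the 2 cannot be told apart in these libraries. The annotation used here gives no coordinates for A2 or A3, so no position below is assigned to either.

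ITS1 lies at chrXII:464709-465069 on the minus strand of the R64 genome, where RefSeq annotates it as ITS1-2 within RDN37-2. All 6858 bases of the tables matched that copy, and the other annotated copy, RDN37-1, differed from it at 0 positions, so reads of the rDNA copies cannot be told apart. Position 1 is listed at 0 in all 15 libraries. So are 8 other positions of the gene, which are the last bases of mature 18S, 5.8S and 25S and the first bases after 5.8S and 25S, and none of them is described. Positions 2 to 11, the 10 next to the mature 18S end, are given apart from the other 350, positions 12 to 361, which are called the ITS1 interior. By base the interior held 103 A, 57 C, 72 G and 118 T.

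The 3 stretches that the results turn on read as follows, 5′ to 3′ on the transcribed strand, from the R64 reference. Capitals mark the 18S-adjacent positions 2 to 11 in the first, positions 205 to 213 in the second and positions 276 to 284 in the third. The second and the third were chosen after their values were seen.
18S end and start of ITS1 (chrXII:465049-465079): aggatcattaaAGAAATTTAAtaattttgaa
positions 191 to 225 (chrXII:464845-464879): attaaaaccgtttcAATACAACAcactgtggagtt
positions 266 to 300 (chrXII:464770-464804): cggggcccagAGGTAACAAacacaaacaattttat

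Values are in CPM, the reads at a position per 1000000 reads of the library in the 35S gene. Libraries held 2835792 to 13234585 reads, and the ITS1 interior held 4737 to 111929 of them. The lowest interior numbers, 4737 to 8278 reads, were those of the 6 MnCl2 and MnCl2 + DNase I libraries, where the median interior position had 7 to 10 reads and 7 to 16 positions had none. The median interior position had 88.5 to 114 reads in untreated libraries.

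The calcium libraries did not sort by their labels in ITS1. Over the 350 interior positions the library labelled CaCl2 replicate 3 had Spearman correlations of 0.93 and 0.95 with CaCl2 + MNase replicates 1 and 3, against 0.63 and 0.66 with CaCl2 replicates 1 and 2. The library labelled CaCl2 + MNase replicate 2 had 0.83 and 0.76 with CaCl2 replicates 1 and 2, against 0.75 and 0.76 with the other libraries of its own group. It had 0.74 with CaCl2 replicate 3 and 0.76 to 0.78 with untreated libraries, so only its value with CaCl2 replicate 1 stood above those with untreated libraries. Within the other groups the correlations were 0.95 to 0.97 (untreated), 0.77 to 0.80 (MnCl2) and 0.79 to 0.81 (MnCl2 + DNase I). These correlations are over positions that share library and base composition, and they describe the libraries only. Groups were kept as labelled, and several shares, ratios and counts of calls are also given without these 2 libraries, a choice made after seeing the data.

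Scaled to each library's own 35S total, occupancy of the ITS1 interior was lower in every treated group than in untreated lysate. The fall was largest in the groups with MnCl2. The paper states that mature rRNA contaminates Pol I NET-seq libraries, so the 35S total also counts mature rRNA. Spacer interiors, external spacers included, summed to 61706 to 67422 CPM in untreated libraries. The sums were 4281 to 5328 CPM with MnCl2 and 3855 to 4264 CPM with MnCl2 + DNase I. They were 25138 to 49414 CPM with CaCl2 and 40948 to 44097 CPM with CaCl2 + MNase. Whether mature rRNA or Pol I occupancy changed was not tested. The ITS1 interior held 0.441, 0.423 and 0.879% of 35S occupancy in the 3 CaCl2 libraries. It held 0.830, 0.806 and 0.783% in CaCl2 + MNase libraries. It held 0.167, 0.151 and 0.175% in MnCl2 libraries and 0.169, 0.145 and 0.146% in MnCl2 + DNase I libraries, against 1.09, 1.04 and 1.15% in untreated libraries. No library of any treated group reached the lowest untreated library. Group means were 0.581 ± 0.258% (CaCl2), 0.806 ± 0.023% (CaCl2 + MNase), 0.164 ± 0.012% (MnCl2), 0.153 ± 0.014% (MnCl2 + DNase I) and 1.09 ± 0.06% (untreated; SD, n = 3 each). The 5 groups differed by an exact permutation test over all 1401400 divisions of the libraries into groups of 3 (p = 6.6e-05, adjusted p = 0.00013 over 2 shares). CaCl2 replicate 3 had more than any other CaCl2 library, and without it and CaCl2 + MNase replicate 2 the CaCl2 mean was 0.432% (n = 2) and the CaCl2 + MNase mean 0.806% (n = 2). With 3 libraries against 3, a pair of groups cannot go below an exact p of 0.10, so single pairs carry no test of this share.

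**Figure D1:**
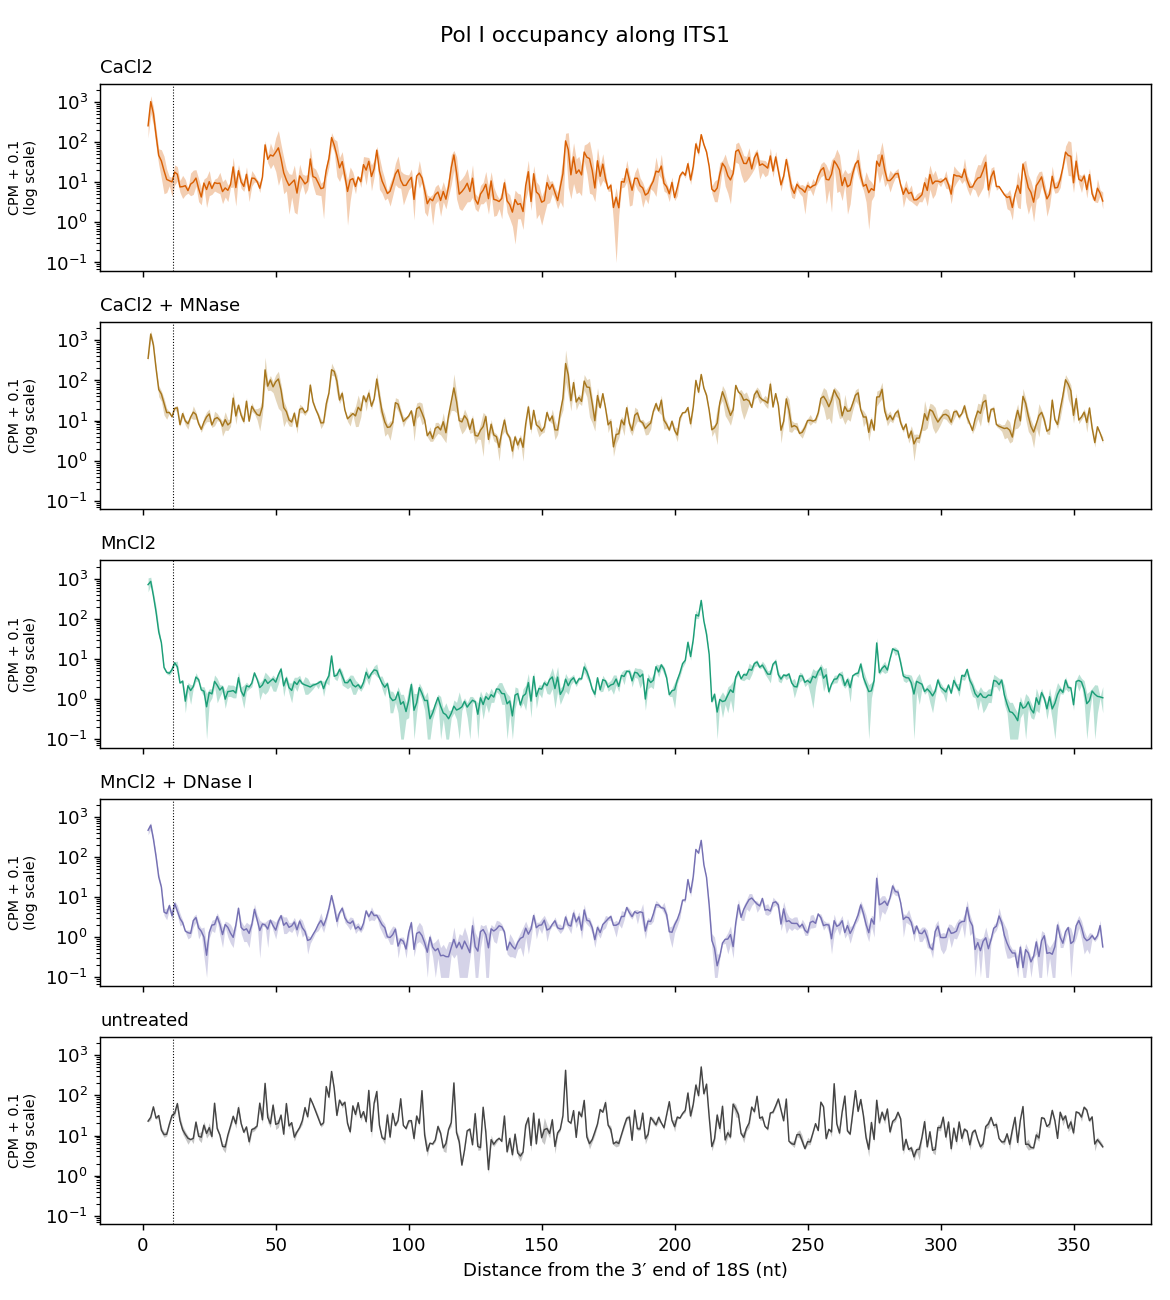
Mean CPM + 0.1 on a log scale (line) and the range of the 3 libraries (shading) at each ITS1 position, against distance from the 3′ end of 18S in nt, with 1 panel per group. The dotted line parts the 18S-adjacent positions (2 to 11 nt) from the interior, where the MnCl2 and MnCl2 + DNase I profiles lie low except for a peak near 210 nt, while untreated lysate has its highest value of 512 CPM at that same distance.

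The 10 positions next to 18S went the other way. They summed to 2910, 1049 and 2293 CPM in CaCl2 libraries. The sums were 3542, 2892 and 2373 CPM in CaCl2 + MNase libraries. MnCl2 libraries had 2915, 1632 and 1993 CPM, MnCl2 + DNase I libraries had 1754, 1669 and 1216 CPM, and untreated libraries had 244, 232 and 264 CPM. Every treated library was above every untreated one, and the means were 8.44-fold (CaCl2), 11.9-fold (CaCl2 + MNase), 8.83-fold (MnCl2) or 6.27-fold (MnCl2 + DNase I) of the untreated mean. The groups differed by the exact permutation test (p = 0.0023, adjusted p = 0.0023 over 2 shares). Without CaCl2 replicate 3 and CaCl2 + MNase replicate 2 these positions held 0.198% of 35S occupancy with CaCl2 and 0.296% with CaCl2 + MNase (n = 2 each), against 0.0247% in untreated lysate. As a part of all ITS1 occupancy these 10 positions held 51.9 to 63.6% in MnCl2 libraries and 45.5 to 53.5% in MnCl2 + DNase I libraries. They held 19.9 to 39.7% in CaCl2 libraries and 23.3 to 29.9% in CaCl2 + MNase libraries, against 2.19 to 2.24% in untreated libraries.

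The added signal sat on the first few bases. Position 3, a G, had 1441, 515 and 1118 CPM in CaCl2 libraries. It had 1767, 1421 and 1132 CPM in CaCl2 + MNase libraries, 1091, 676 and 797 CPM in MnCl2 libraries and 723, 668 and 488 CPM in MnCl2 + DNase I libraries, against 29.5, 24.9 and 31.1 CPM in untreated libraries. It was the highest of the 10 in each treated group by mean, whereas position 4 was highest in untreated lysate. Its log2 change against untreated, on the log2(CPM + 1) scale used for all tests of single positions, was 5.00 ± 0.34 (SE; adjusted p = 0.00012, limma) with CaCl2 and 5.59 ± 0.16 (adjusted p = 1.9e-06, limma) with CaCl2 + MNase. It was 4.84 ± 0.16 (adjusted p = 5.3e-11, limma) with MnCl2 and 4.40 ± 0.14 (adjusted p = 3.6e-11, limma) with MnCl2 + DNase I. The 4 comparisons with untreated lysate share the untreated libraries.

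Positions 2 to 5 together held 93.5% (CaCl2), 93.9% (CaCl2 + MNase) or 95.6% (both MnCl2 groups) of the 18S-adjacent signal, against 52.7% in untreated lysate. That 4-base run was chosen after its values were seen. Position 2, an A, had 1045, 470 and 616 CPM in MnCl2 libraries, against 369, 128 and 272 CPM in CaCl2 libraries. It was higher with MnCl2 than with CaCl2 (log2 change 1.52 ± 0.39, adjusted p = 0.013, limma), but not without MnCl2 replicate 1 (adjusted p = 0.070, limma). Further from 18S the treated groups parted: at position 8, a T, CaCl2 + MNase libraries had 30.6, 13.6 and 35.9 CPM, and MnCl2 libraries had 6.0, 6.5 and 5.5 CPM, against 8.9, 10.3 and 12.2 CPM in untreated libraries. CaCl2 libraries had 8.4, 5.1 and 44.6 CPM there. The CaCl2 + MNase call at position 8 changed in 4 of the 6 fits that each left out 1 library. At position 11, an A and the last of the 10, every treated library was below every untreated one. MnCl2 libraries had 4.6, 4.8 and 6.6 CPM there, against 28.2, 30.5 and 36.4 CPM in untreated libraries.

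In tests over all positions of the gene, adjusted by Benjamini-Hochberg over every position tested, 5 of the 10 positions were called with CaCl2 (4 higher, 1 lower), where 32.3% of all positions were called. With CaCl2 + MNase 8 were called (7 higher, 1 lower), where 54.7% of all positions were. All 10 were called with MnCl2 (6 higher, 4 lower), where 72.9% of all positions were, and 8 after DNase I in MnCl2 (4 higher, 4 lower), where 75.7% were. The 4 lower positions in both MnCl2 groups were 8 to 11. They depend on the scale: when libraries were rescaled to the sum of the 4 spacer interiors, all 10 positions were higher in both groups. That scale moved the median log2 change of all 35S positions by 3.68 for MnCl2, 3.95 for MnCl2 + DNase I, 0.93 for CaCl2 and 0.59 for CaCl2 + MNase.

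**Figure D2:**
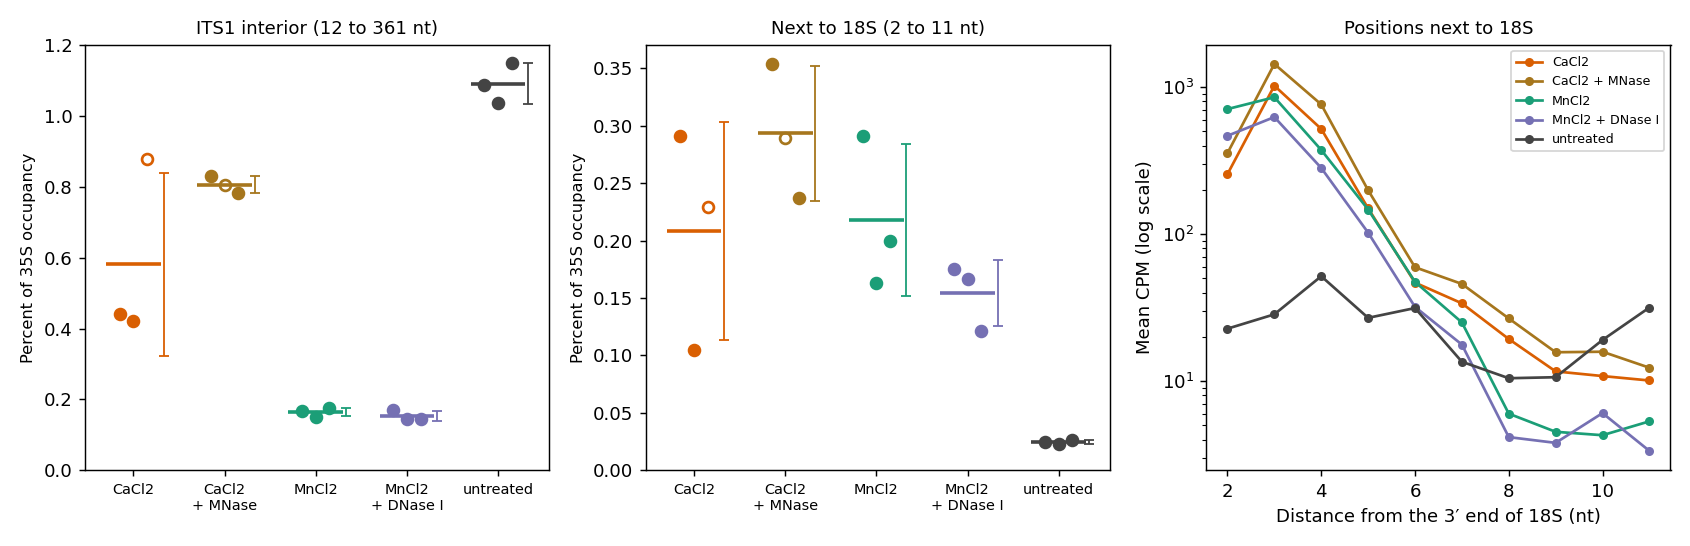
Left and centre: percent of 35S occupancy in the ITS1 interior and at the 18S-adjacent positions, 1 point per library, with the mean (horizontal line) and SD (error bar) of each group; open points are CaCl2 replicate 3 and CaCl2 + MNase replicate 2. Right: mean CPM (log scale) at each 18S-adjacent position by distance from 18S, where the 4 treated groups peak at 3 nt and untreated lysate stays between 10.5 and 51.7 CPM.

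In the interior, 342 of 350 positions were lower with MnCl2, where 44.2% of all 35S positions were lower, and 0 were higher, where 28.6% of all positions were (limma; 343 were at an unadjusted p under 0.05, and edgeR called 341). The median log2 change was -2.42 in the interior against -0.19 over all 35S positions. With DNase I in MnCl2, 344 were lower and 1 was higher, where 48.2% of all positions were lower and 27.5% higher, with a median of -2.52 against -0.24 over all positions. With CaCl2, 122 were lower and 1 was higher, where 16.3% of all positions were lower and 16.1% higher, with a median of -0.70 against 0.07. With CaCl2 + MNase, 130 were lower and 45 higher, where 22.5% of all positions were lower and 32.2% higher, with a median of -0.33 against 0.11. The share of interior positions called was 35.1% with CaCl2 and 50% with CaCl2 + MNase, near the background of 32.3% and 54.7%, whereas it was 97.7% for MnCl2 and 98.6% for MnCl2 + DNase I, above the background of 72.9% and 75.7%. Most positions of that background lie in mature rRNA. The other spacers were also lower in both MnCl2 groups, as given below.

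The direction of these counts belongs to the scale of the 35S total. Rescaled to the sum of the spacer interiors, the calls were 163 higher and 56 lower for MnCl2 and 172 higher and 70 lower for MnCl2 + DNase I. They were 80 higher and 61 lower with CaCl2, and 118 higher and 70 lower with CaCl2 + MNase. On that scale the median log2 change with MnCl2 was 0.50 in the interior and 3.50 over all 35S positions. These medians were 0.55 and 3.71 with MnCl2 + DNase I, 0.13 and 0.99 with CaCl2, and 0.19 and 0.70 with CaCl2 + MNase. The interior thus stayed below the gene as a whole. The spacer sum includes the ITS1 interior, and the share of all 35S positions called on that scale is not given. The count for CaCl2 also rested on single libraries: it was 226 (2 higher, 224 lower) without CaCl2 replicate 3, and it was 72, 84 and 68 when untreated replicate 1, 2 or 3 was left out in turn. Without CaCl2 + MNase replicate 2, the calls with CaCl2 + MNase were 78 higher and 139 lower, where 2219 of the 6842 positions tested over all of 35S were higher. For the lower calls, and for the CaCl2 counts without 1 library, the share over all 35S positions is not given.

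Set against the other spacers, no difference between groups was found in the ratio of the ITS1 interior to ITS2, while its ratios to the 2 external spacers differed between groups. The ratio of interior occupancy in ITS1 to that in ITS2 was 1.42 ± 0.19 (CaCl2), 1.43 ± 0.06 (CaCl2 + MNase), 1.41 ± 0.06 (MnCl2), 1.52 ± 0.10 (MnCl2 + DNase I) and 1.38 ± 0.08 (untreated; SD, n = 3 each), and the groups were not told apart (exact permutation test, adjusted p = 0.64 over 3 ratios). Without positions 205 to 213 and 276 to 284, described below, it was 0.69 (MnCl2), 0.70 (MnCl2 + DNase I), 1.23 (CaCl2) and 1.31 (CaCl2 + MNase), against 1.17 in untreated lysate, as a description with no test. Those positions were taken out of ITS1 only, while ITS2 kept all of its own. This lowers the ratio by construction, and most in the MnCl2 groups, where those positions held the largest share. The ratio of the ITS1 interior to ETS1, the 5′ external spacer, was 0.271 ± 0.027 with CaCl2, 0.341 ± 0.036 after MNase in CaCl2, 1.12 ± 0.14 with MnCl2 and 1.24 ± 0.09 after DNase I in MnCl2, against 0.258 ± 0.005 in untreated lysate (SD, n = 3 each; exact permutation test, adjusted p = 0.00015). The ratio to the interior of ETS2, the 3′ external spacer, was 1.80 ± 0.69 with CaCl2, 1.77 ± 0.10 after MNase in CaCl2, 3.04 ± 0.51 with MnCl2 and 6.35, 5.54 and 5.52 in the libraries with DNase I in MnCl2, against 2.93 ± 0.09 in untreated lysate (SD, n = 3 each; exact permutation test, adjusted p = 0.00036). Without positions 205 to 213 and 276 to 284, the ratio to ETS1 was 0.55 (MnCl2), 0.57 (MnCl2 + DNase I), 0.23 (CaCl2) and 0.31 (CaCl2 + MNase), against 0.22 in untreated lysate. The ratio to ETS2 was then 1.48, 2.66, 1.55 and 1.62, in that order, against 2.49. Both are descriptions with no test, lowered by construction in the same way. With all its positions, the ITS1 interior accordingly held 34.0% of all spacer-interior occupancy with MnCl2, 37.9% after DNase I in MnCl2, 16.7% with CaCl2 and 19.2% with CaCl2 + MNase, against 16.8% in untreated lysate. On the scale of the 35S total, the fall with MnCl2 was thus not confined to ITS1. By group means the ITS1 interior was 6.64-fold lower than untreated. The fall was 6.82-fold for the ITS2 interior, 6.76-fold for the ETS2 interior and 28.5-fold for ETS1. With MnCl2 + DNase I these folds were 7.12, 7.89, 14.2 and 34.3, in the same order.

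Within the interior the occupancy was spread over many positions in untreated lysate. By mean CPM the 9 most occupied positions there were 210, 159, 71, 117, 46, 260, 212, 208 and 69, and they held 22.6% of the interior. Position 210, an A, had 459, 488 and 590 CPM, and position 159, a G, had 454, 436 and 381 CPM. Position 71, an A, had 398, 348 and 439 CPM. The 3 of these sites outside positions 205 to 213 with the highest untreated values read as follows, with the last base of the RNA in capitals.
position 159 (chrXII:464901-464921): attccaaacgGtgagagattt
position 71 (chrXII:464989-465009): actgggcaagAagacaagaga
position 117 (chrXII:464943-464963): taagtgcgcgGtcttgctagg

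With MnCl2, 6 of those 9 were no longer among the 9 most occupied. The 9 most occupied positions were the same 9 with MnCl2 and with MnCl2 + DNase I: 7 lay within 205 to 213 and 2 within 276 to 284. Only 210 was among the 9 of every group, and untreated lysate shared 3 of its 9 with each MnCl2 group, 5 with CaCl2 and 4 with CaCl2 + MNase. Positions 205 to 213 summed to 706, 677 and 833 CPM in MnCl2 libraries and to 744, 739 and 667 CPM in MnCl2 + DNase I libraries, against 1238, 1216 and 1526 CPM in untreated libraries. The run was thus 0.56-fold and 0.54-fold of untreated, while the 332 interior positions outside 205 to 213 and 276 to 284 were 11.6-fold and 13.2-fold lower. As a share of the interior, the 9 positions held 44.9 ± 2.7% for MnCl2, 46.9 ± 3.5% for MnCl2 + DNase I, 10.4 ± 4.1% with CaCl2 and 5.81 ± 0.51% with CaCl2 + MNase, against 12.1 ± 1.0% in untreated lysate (SD, n = 3 each). Both runs were chosen after their values were seen, so neither carries a test.

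Single positions in that run differed in size of change. Position 210 had 268, 274 and 318 CPM in MnCl2 libraries, below every untreated library, and its log2 change was -0.83 ± 0.12 (adjusted p = 5.2e-05, limma), which turned to 2.91 when libraries were rescaled to the spacer interiors. Position 209, a C next to it, had 118, 101 and 132 CPM in MnCl2 libraries and 123, 136 and 118 CPM in MnCl2 + DNase I libraries, against 98.2, 84.4 and 113 CPM in untreated libraries. It was the only interior position called higher with MnCl2 + DNase I (log2 change 0.35 ± 0.12, adjusted p = 0.016, limma), and the call was lost without MnCl2 + DNase I replicate 2 or untreated replicate 2. It was not called with MnCl2 (0.25 ± 0.14, adjusted p = 0.14, limma). Against CaCl2, MnCl2 was higher at 209 (1.11 ± 0.19, adjusted p = 0.0019, limma) and at 210 (0.90 ± 0.14, adjusted p = 0.0016, limma), the only 2 interior positions of 257 called that were higher, where 42.2% of all 35S positions were called and 9.54% were higher. The other 255 were lower, where 32.6% of all positions were. Without CaCl2 replicate 3, 251 were called, 2 higher and 249 lower, and the share of all 35S positions called in that fit is not given.

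Positions 276 to 284 were the other stretch that kept part of its occupancy. They summed to 114, 96.3 and 108 CPM in MnCl2 libraries and to 147, 73.6 and 116 CPM in MnCl2 + DNase I libraries, against 318, 332 and 258 CPM in untreated libraries. The run was thus 0.35-fold and 0.37-fold of untreated. Of the 8 interior positions that were not called with MnCl2, 6 lay between 281 and 292, as did 4 of the 5 that were neither lower nor higher with MnCl2 + DNase I. Only 281 and 282 of these lay within 276 to 284, in both groups. Position 282, a C, had 17.6, 16.2 and 19.5 CPM in MnCl2 libraries, against 22.8, 24.7 and 19.9 CPM in untreated libraries (log2 change -0.32 ± 0.17, adjusted p = 0.11, limma).

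**Figure D3:**
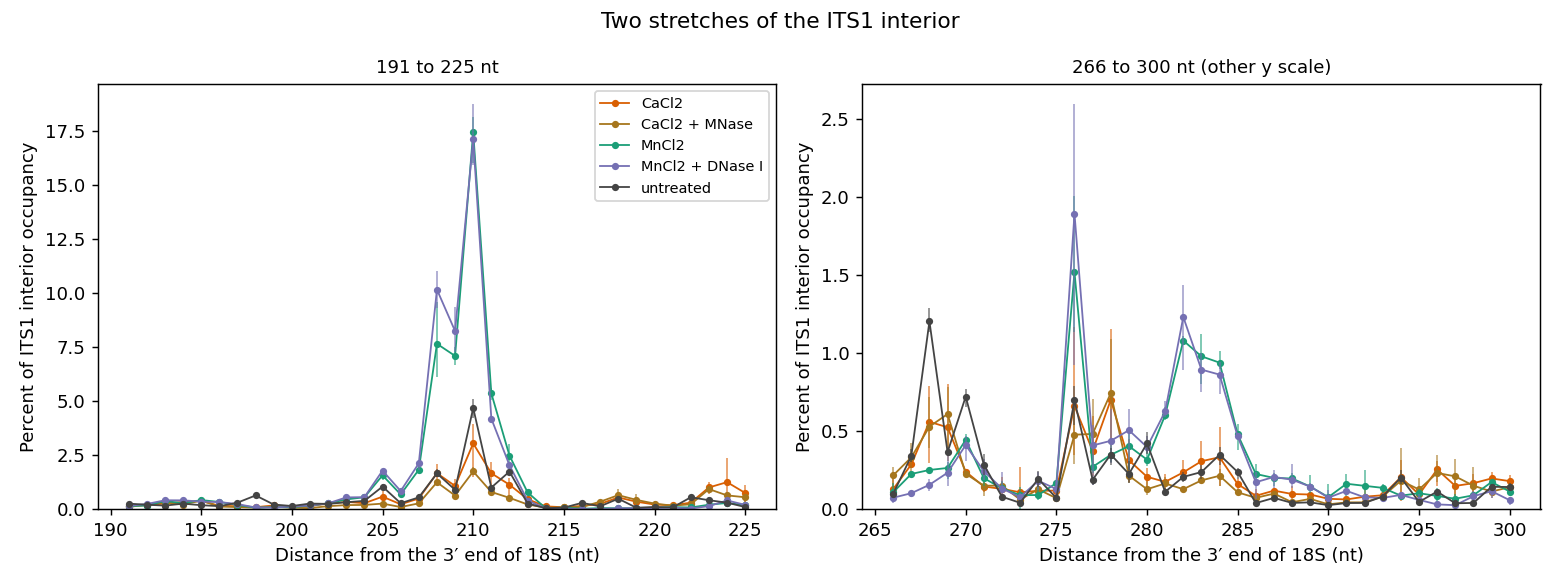
Percent of ITS1 interior occupancy at each position of 2 stretches, against distance from the 3′ end of 18S in nt; points and lines are group means and vertical lines the range of the 3 libraries, and the panels have different y scales. Every MnCl2 and MnCl2 + DNase I library is at 15.9% or more at 210 nt, where the untreated mean is 4.68%, and they have a second low group of positions around 276 and 281 to 284 nt.

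On the log2(CPM + 1) scale a position can fall by no more than its untreated value, so the deepest falls with MnCl2 had to lie at sites that were high in untreated lysate. Position 117, a G, had 1, 2 and 4 reads in MnCl2 libraries and 6, 2 and 1 reads in MnCl2 + DNase I libraries, against 1477, 1312 and 794 reads in untreated libraries. Its log2 change was -7.04 ± 0.21 (adjusted p = 2.6e-11, limma) with MnCl2. Position 159 had 4.2, 1.5 and 3.4 CPM in MnCl2 libraries and 3.4, 3.9 and 2.0 CPM in MnCl2 + DNase I libraries, 140-fold and 136-fold lower than the untreated mean of 423 CPM. Position 105, a C, had 1.8, 1.2 and 0.8 CPM in MnCl2 libraries, against 132, 128 and 134 CPM in untreated libraries (log2 change -5.88 ± 0.19, adjusted p = 4.7e-11, limma). The same 3 positions led the falls with MnCl2 + DNase I. Against CaCl2, the leading falls with MnCl2 were at 117 (log2 change -4.83 ± 0.45), 159 (-4.72 ± 0.40) and 46 (-4.50 ± 0.38), with adjusted p-values of 9.4e-05, 6.4e-05 and 6.6e-05 (limma). Values of a few reads in the MnCl2 groups limit the precision of these folds.

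With CaCl2 and CaCl2 + MNase the largest falls were smaller than with MnCl2, and 2 of the 3 largest in each group lay at other sites. Position 198, a C, had 6.6, 3.2 and 5.3 CPM in CaCl2 libraries and 5.3, 5.8 and 6.0 CPM in CaCl2 + MNase libraries, against 63.6, 69.9 and 75.4 CPM in untreated libraries. Its log2 change was -3.58 ± 0.29 (adjusted p = 0.00018, limma) with CaCl2 and -3.39 ± 0.18 (adjusted p = 1.3e-05, limma) with CaCl2 + MNase. Position 105 was next in both groups, with log2 changes of -3.29 ± 0.21 (adjusted p = 0.00011, limma) and -3.20 ± 0.37 (adjusted p = 0.00036, limma). Position 44, an A, followed with CaCl2 (-3.06 ± 0.28, adjusted p = 0.00028, limma) and position 128, a C, with CaCl2 + MNase (-3.19 ± 0.62, adjusted p = 0.0034, limma).
position 198 (chrXII:464862-464882): acaattaaaaCcgtttcaata
position 105 (chrXII:464955-464975): cgggcctgcgCttaagtgcgc
position 44 (chrXII:465016-465036): tgttttggcaAgagcatgaga
position 128 (chrXII:464932-464952): tcttgctaggCttgtaagttt
These sequences show the sites with the 3 largest falls in either calcium group, 198 and 105 in both, 44 with CaCl2 and 128 with CaCl2 + MNase, with the last base in capitals.

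The 3 largest rises with CaCl2 + MNase were at positions 168, 167 and 160, all T. Position 168 had 113, 12.2 and 76.2 CPM in CaCl2 + MNase libraries, against 4.5, 7.4 and 6.5 CPM in untreated libraries (log2 change 2.79 ± 0.70, adjusted p = 0.0099, limma). Position 167 had 105, 38.7 and 61.9 CPM, against 8.3, 7.6 and 11.4 CPM in untreated libraries (2.69 ± 0.34, adjusted p = 0.00054, limma). At both, CaCl2 + MNase replicate 2 was the lowest of its group, and the log2 changes were 3.73 and 3.03 without it. The 1 position called higher with CaCl2 was also a T, position 225, with 15.4, 46.8 and 70.5 CPM in CaCl2 libraries, against 11.5, 11.6 and 10.2 CPM in untreated libraries (1.66 ± 0.49, adjusted p = 0.034, limma), and the call was lost without CaCl2 replicate 2 or any 1 untreated library. Of the 45 interior positions called higher with CaCl2 + MNase, 32 were T, 8 were G, 3 were C and 2 were A. T was thus the base of 71.1% of them, while it was the base of 32.0% of the 2201 positions called higher over all of 35S and of 33.7% of interior positions, as a description with no test. Without CaCl2 + MNase replicate 2, 45 of 78 were T (57.7%), where T was the base of 34.5% of the higher calls over all of 35S. With all 3 libraries, the median log2 change was 0.13 at T, -0.10 at G, -0.30 at C and -0.95 at A.

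A pair of neighbours shows how the calcium libraries parted. Position 160, a T, follows the G at 159, one of the highest sites in untreated lysate.
position 160 (chrXII:464900-464920): ttccaaacggTgagagatttc
Its CPM were 173 in CaCl2 replicate 3 and 177 and 197 in CaCl2 + MNase replicates 1 and 3, but 15.7 and 7.3 in CaCl2 replicates 1 and 2 and 41.5 in CaCl2 + MNase replicate 2. Untreated libraries had 22.9, 23.1 and 22.2 CPM. The ratio of 160 to 159 was 2.44, 1.92 and 1.60 in the first 3 of these libraries, and 0.094, 0.086 and 0.072 in the other 3, against 0.051, 0.053 and 0.058 in untreated libraries. This pair was chosen after its values were seen, and no test was made on it.

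With all libraries and the scale of the 35S total, no position in ITS1 was called between a nuclease group and its cation group. For CaCl2 + MNase against CaCl2, 0 interior positions and 0 18S-adjacent positions were called (limma; 16 and 0 at an unadjusted p under 0.05), as 0% of all 35S positions were. Without CaCl2 replicate 3 and CaCl2 + MNase replicate 2, a choice made after seeing the data that left 2 libraries against 2, 47 interior positions and 1 18S-adjacent position were called, all higher with MNase. Leaving out either library alone gave 0. For MnCl2 + DNase I against MnCl2, 0 interior and 0 18S-adjacent positions were called by limma and 0 and 0 by edgeR on reads recovered from the CPM (limma, 42 and 7 at an unadjusted p under 0.05), where 0.238% of all positions were. Rescaled to the spacer interiors, 7 interior positions were called (5 higher, 2 lower with DNase I), and 2 and 3 were called when MnCl2 replicate 1 or 3 was left out. The change with MNase minus the change with DNase I, as an interaction term, gave 0 called positions in either part (limma; 35 and 4 at an unadjusted p under 0.05), as 0% of all positions were called. It gave 78 in the interior and 3 next to 18S without the same 2 libraries. Those 2 libraries were picked after their interior profiles were seen, so the counts without them are partly set by that choice. Such counts are no test of MNase in ITS1, and the share of all 35S positions called in that setting is not given.

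Along the interior, the middle one of 7 windows of 50 nt held more of the occupancy with MnCl2 than in untreated lysate, and the window next to 5.8S held less. The middle window, positions 162 to 211, held 48.1, 50.3 and 53.9% of the interior in MnCl2 libraries and 51.1, 57.2 and 53.0% in MnCl2 + DNase I libraries. It held 19.4 ± 1.7% with CaCl2 and 16.4 ± 1.2% with CaCl2 + MNase, against 20.0 ± 1.3% in untreated lysate (SD, n = 3 each; exact permutation test, adjusted p = 0.00013 over 7 windows). The window next to 5.8S, positions 312 to 361, held 10.5 ± 1.1% with CaCl2, 10.9 ± 1.0% after MNase in CaCl2, 3.74 ± 0.16% with MnCl2 and 2.90 ± 0.20% after DNase I in MnCl2, against 8.52 ± 0.23% in untreated lysate (SD, n = 3 each; exact permutation test, adjusted p = 3e-05). All 7 windows had an adjusted p under 0.05, the weakest being positions 262 to 311 (exact permutation test, adjusted p = 0.022), which was 0.055 or 0.053 when MnCl2 replicate 1 or 2 was left out, and 0.070 when CaCl2 replicate 3 and CaCl2 + MNase replicate 2 were. The ratio of positions 187 to 361 to positions 12 to 186 was 1.22 ± 0.41 with CaCl2 and 0.837 ± 0.078 with CaCl2 + MNase, and without CaCl2 replicate 3 and CaCl2 + MNase replicate 2 it was 1.37 and 0.881 (n = 2 each). It was 3.32 ± 0.24 with MnCl2 and 3.53 ± 0.10 after DNase I in MnCl2, against 0.948 ± 0.004 in untreated lysate (SD, n = 3 each; exact permutation test, p = 0.00016). Positions 205 to 213 lie on the 5.8S side of that border. Outside positions 205 to 213 and 276 to 284 the same ratio was 0.66 in untreated lysate. It was 1.10 (MnCl2), 1.07 (MnCl2 + DNase I), 0.91 (CaCl2) and 0.68 (CaCl2 + MNase), as a description with no test. Windows share the same total, so a large share in those runs lowers other windows by construction. Outside the runs the middle window held 18.8% (MnCl2) and 20.2% (MnCl2 + DNase I), against 11.6% in untreated lysate. The window next to 5.8S then held 7.70% and 6.34%, against 10.0%. The window after the middle one held 21.4% and 22.7%, against 15.6%. With all positions it held 13.7% and 12.8%, against 15.3%. These window shares carry no test.

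**Figure D4:**
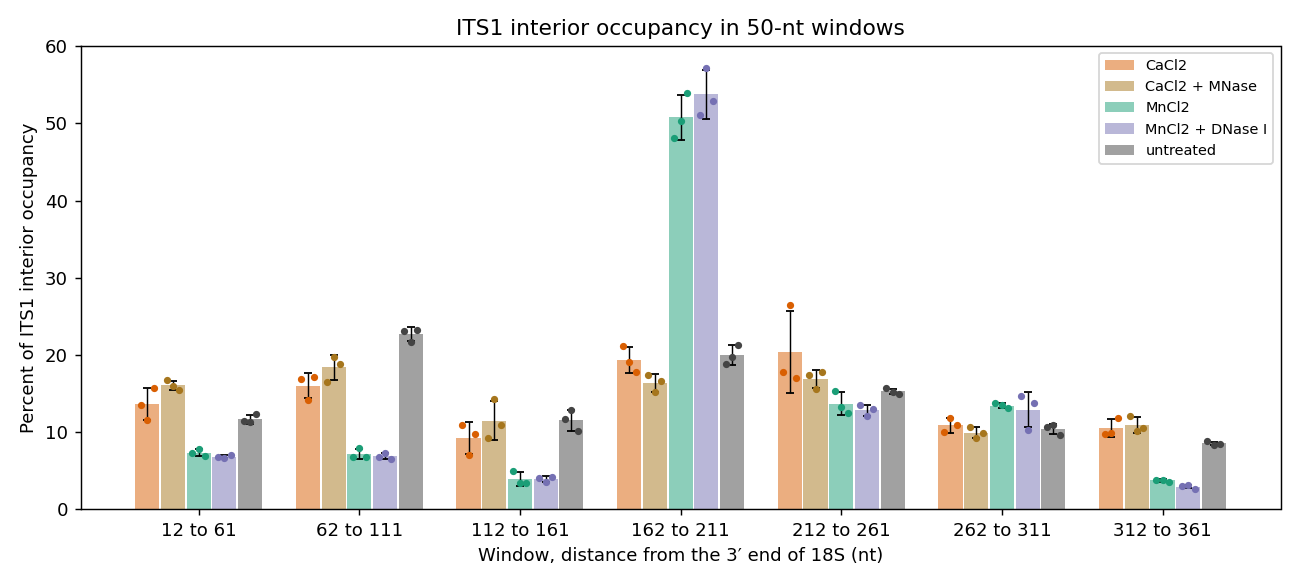
Percent of ITS1 interior occupancy in 7 windows of 50 nt, by distance from the 3′ end of 18S in nt; bars are group means, error bars the SD and points the 3 libraries. The window of 162 to 211 nt holds over 48% in each MnCl2 and MnCl2 + DNase I library and at most 21.3% in each of the other 9 libraries.

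The most occupied positions held a larger share of the interior with MnCl2. The runs at 205 to 213 and 276 to 284 held the 9 most occupied positions of both MnCl2 groups, and 3 of the 9 in untreated lysate. The 10 most occupied positions of each library held 45.0, 46.7 and 49.4% of the interior in MnCl2 libraries and 47.7, 52.3 and 49.2% in MnCl2 + DNase I libraries. They held 22.7, 20.9 and 15.4% in CaCl2 libraries and 16.1, 28.2 and 17.9% in CaCl2 + MNase libraries, against 24.1, 24.1 and 23.8% in untreated libraries (exact permutation test, p = 0.00091). With every library thinned to 4737 interior reads the p was 0.0010 (exact permutation test). Without CaCl2 replicate 3 and CaCl2 + MNase replicate 2 the means were 21.8% with CaCl2 and 17.0% with CaCl2 + MNase (n = 2 each). Over the 332 positions outside the 2 runs the MnCl2 groups had the smaller shares: the 10 most occupied held 10.9 ± 0.5% (MnCl2), 12.6 ± 0.3% (MnCl2 + DNase I), 19.2 ± 2.4% (CaCl2) and 22.0 ± 6.9% (CaCl2 + MNase) of that occupancy, against 23.0 ± 1.0% in untreated lysate (SD, n = 3 each), as a description with no test. Removing runs that held the top MnCl2 sites lowers the MnCl2 shares by construction, so no conclusion is drawn from these values.

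The last base of the RNA differed between groups. A was the last base of 53.8 ± 2.1% (MnCl2), 54.1 ± 0.7% (MnCl2 + DNase I), 35.1 ± 6.4% (CaCl2) and 32.0 ± 6.8% (CaCl2 + MNase) of interior occupancy, against 46.4 ± 1.0% in untreated lysate (SD, n = 3 each; exact permutation test, adjusted p = 0.00098 over 8 base shares), while 29.4% of interior positions were A. G was the last base of 21.5 ± 2.7% with CaCl2, 25.4 ± 1.1% after MNase in CaCl2, 10.1 ± 0.5% with MnCl2 and 9.38 ± 0.54% after DNase I in MnCl2, against 22.5 ± 0.2% in untreated lysate (exact permutation test, adjusted p = 0.00039, n = 3 each). T was the last base of 25.4, 28.2 and 36.2% of interior occupancy in CaCl2 libraries and of 36.1, 22.8 and 34.3% in CaCl2 + MNase libraries. It was the last base of 18.7, 17.5 and 17.7% in MnCl2 libraries and of 17.4 ± 0.6% after DNase I in MnCl2, against 17.8 ± 0.6% in untreated lysate (exact permutation test, adjusted p = 0.013, n = 3 each), while 33.7% of positions were T. All 6 calcium libraries were above all untreated ones at T, and the 3 highest were the same 3 that stood together at position 160. Without CaCl2 replicate 3 and CaCl2 + MNase replicate 2, T was the last base of 26.8% with CaCl2 and 35.2% with CaCl2 + MNase, and A of 38.7% with CaCl2 and 28.1% with CaCl2 + MNase (n = 2 each).

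The next base of the transcribed sequence, the one that would have followed the last base of the RNA, was A for 50.8% (MnCl2), 51.4% (MnCl2 + DNase I), 31.1% (CaCl2) and 27.6% (CaCl2 + MNase) of interior occupancy, against 30.4% in untreated lysate (exact permutation test, adjusted p = 0.00039, n = 3 each). All 8 base shares had an adjusted p under 0.05. By last and next base together, the 22 positions where A is followed by G held 4.9% (MnCl2), 5.1% (MnCl2 + DNase I), 8.9% (CaCl2) and 10.7% (CaCl2 + MNase) of interior occupancy, against 14% in untreated lysate. The 23 positions where C is followed by A held 14.8% with MnCl2 and 15.6% with MnCl2 + DNase I, against 5.9% in untreated lysate. The runs at 205 to 213 and 276 to 284 weigh on these shares: outside them the share of A as the last base was 32.8 ± 1.6% with MnCl2 and 32.5 ± 1.2% with MnCl2 + DNase I, against 41.9 ± 1.2% in untreated lysate, and that of T was 32.4 ± 0.9% and 32.3 ± 0.9%, against 20.0 ± 0.7% (SD, n = 3 each), as a description with no test. Over the other 332 positions, A was thus less frequent and T more frequent as the last base in each of the 4 treated groups than in untreated lysate. Over these positions G was the last base of 19.6% (MnCl2) and 18.6% (MnCl2 + DNase I), against 25.8% in untreated lysate. The next base was A for 34.1% and 35.4%, against 23.6%. For the MnCl2 groups these values follow the removal of their 9 most occupied positions, of which 5 were A. Their lower share of A was therefore partly set by that choice.

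**Figure D5:**
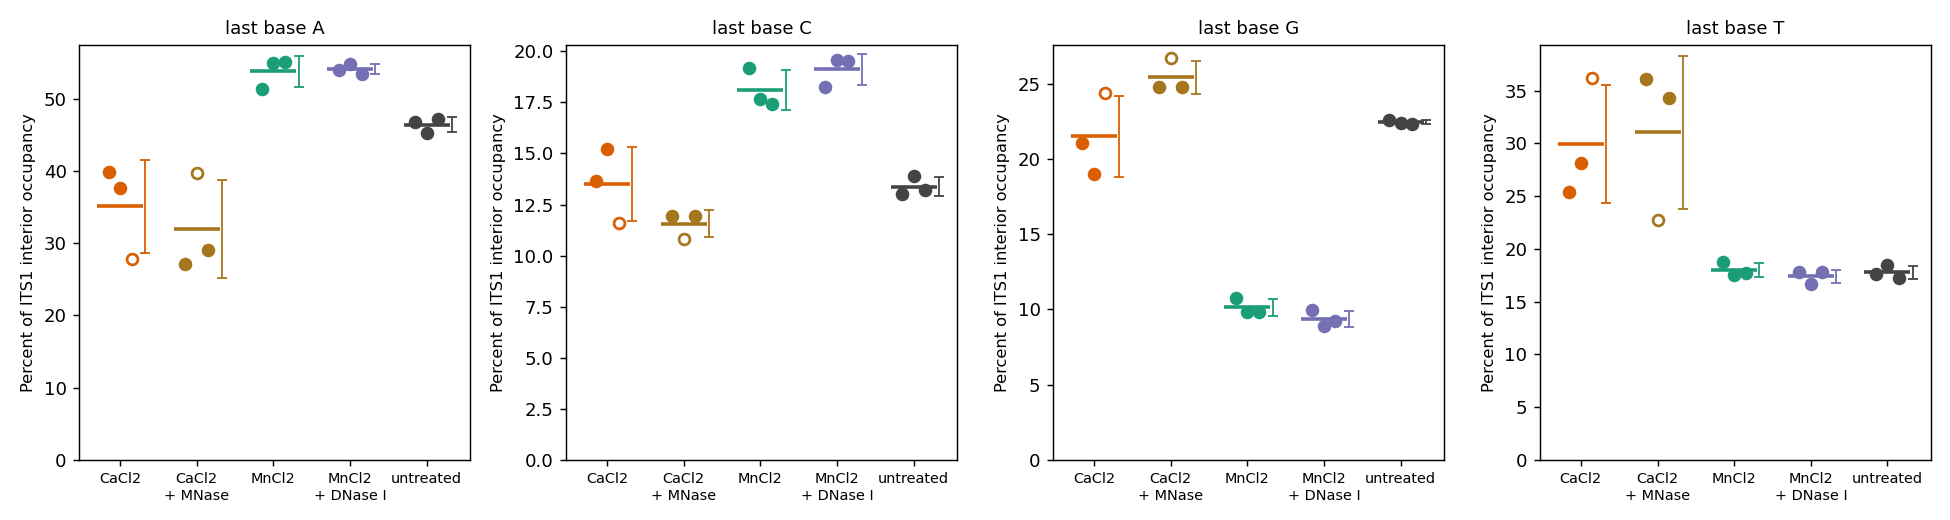
Percent of ITS1 interior occupancy by the last base of the RNA, with 1 panel for each of A, C, G and T; points are libraries, horizontal lines group means and error bars the SD, and open points are CaCl2 replicate 3 and CaCl2 + MNase replicate 2. At T, CaCl2 replicate 3 (36.2%) lies with CaCl2 + MNase replicates 1 and 3 (36.1 and 34.3%), and CaCl2 + MNase replicate 2 (22.8%) lies below all CaCl2 libraries.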

How the data were processed

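Pol I NET-seq was measured in 15 libraries, 3 in each of 5 groups. Per the labels, the authors trimmed reads with cutadapt 3.4, aligned them with STAR 2.7.1a to R64, handled alignments with SAMtools 1.6 and counted 3′ ends with bedtools 2.28.0. The deposited values are CPM: each library's reads per position were scaled by the authors to its total over the 35S gene, and the columns sum to 1000000 up to position 6739. Each of 7 deposited tables sets 1 group against another; a library's values did not differ between tables. The tables also hold the authors' ratio of group means (a fold) and p-value per position, which were not used. Read numbers were worked out from the deposited CPM, with 99.7 to 99.99% of positions within 0.02 reads of a whole number over the 15 libraries. For edgeR, whole reads were taken as recovered in 13 libraries. CaCl2 replicate 3 and CaCl2 + MNase replicate 3 were not among them, so edgeR was run for the 3 comparisons without calcium groups. Read numbers of those 2 libraries, also used in the thinning, are rounded estimates.

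Single positions were tested with limma 3.58.1 (R 4.3.3) on log2(CPM + 1) of the 6 libraries of a pair, with a mean-variance trend, on positions above 0 in at least 3 libraries, and p-values were adjusted by Benjamini-Hochberg over all 35S positions (threshold 0.05). Values of 1 number per library were compared over the 5 groups with an exact permutation test of the F ratio over all divisions into the same group sizes, one-sided for a large F and so blind to direction. Tested on simulated data for MnCl2 against untreated over 6840 positions, limma recovered 0, 169 and 195 of 200 changes of 0.5, 1 and 2 on the log2 scale. It made 0, 8 and 7 false calls there. The simulation used untreated means and the spread of those 2 groups, so it does not give the power of the other comparisons. Within a group no 2 libraries agreed within sampling noise (chi-square per degree of freedom 3.78 to 87.5). Positions named are the 10 next to 18S, the 9 most occupied interior positions of each group, and the 3 largest rises and falls per comparison among called positions whose groups do not overlap; others are said to be chosen after their values were seen. The members, lists and windows were chosen with earlier results of these data known. Replicate numbers paired MnCl2 with CaCl2 (same-number correlations 0.11 to 0.21, each over 0.1), which changed no count by over 1.5 times. Alternatives were other pseudocounts (0.25 and 5), scalings and filters, a fit on all 15 libraries, edgeR 4.0.16, a replicate block and leaving out each library.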

Additional observations from a re-analysis of the deposited data

How the results depend on the processing

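Rescaling to the sum of the spacer interiors changed most: it gave 219 interior calls for MnCl2 against untreated, 141 between MnCl2 and CaCl2, 7 between MnCl2 + DNase I and MnCl2, and next to 18S 9 for CaCl2 against untreated and 10 for MnCl2 against CaCl2. On that scale the log2 change turned positive with MnCl2 against untreated at positions 8 (2.58), 9 (2.18), 10 (1.43), 11 (1.08), 210 (2.91), 211 (3.39) and 282 (3.21). With MnCl2 + DNase I it did so at 8 (2.31), 9 (2.14), 10 (2.14), 11 (0.69), 208 (3.76), 210 (3.03), 211 (3.20) and 282 (3.52), and with MnCl2 against CaCl2 at 3 (2.60) and 10 (1.31). The cause was not tested. On that scale the median log2 change over all 35S positions was 3.50 with MnCl2 and 3.71 with MnCl2 + DNase I against untreated. It was 2.46 with MnCl2 against CaCl2. Without CaCl2 replicate 3 and CaCl2 + MNase replicate 2, CaCl2 + MNase against CaCl2 gave 47 interior calls and 1 next to 18S, and the interaction gave 78 and 3, and the window 262 to 311 had an adjusted p of 0.070 (exact permutation test). As these 2 libraries were picked by their interior profiles, those counts of calls are no test of MNase in ITS1.

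Leaving out 1 library at a time, interior calls ranged from 68 to 226 (CaCl2), 130 to 217 (CaCl2 + MNase), 338 to 343 (MnCl2), 342 to 346 (MnCl2 + DNase I) against untreated, 180 to 291 for MnCl2 against CaCl2, 0 to 3 for MnCl2 + DNase I against MnCl2, 0 to 0 for CaCl2 + MNase against CaCl2 and 0 to 3 for the interaction. Next to 18S they ranged from 1 to 7 for MnCl2 against CaCl2, 4 to 7 (CaCl2), 6 to 9 (CaCl2 + MNase), 9 to 10 (MnCl2), 8 to 9 (MnCl2 + DNase I) against untreated. The 7 windows under 0.05 became 6 in some of these, and the 8 base shares stayed at 8. Without position 210, the window 212 to 261 had an adjusted p of 0.061 (exact permutation test).

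Against untreated, the replicate block gave 118 (CaCl2), 163 (CaCl2 + MNase), 343 (MnCl2), 345 (MnCl2 + DNase I) interior calls, 0 and 0 for the nucleases and 278 for MnCl2 against CaCl2, so it moved no count by over 1.5 times; at position 211 the MnCl2 call was lost (adjusted p = 0.056, limma). Each MnCl2 + DNase I library also correlated best with the MnCl2 library of its own number, but at 0.044 to 0.098, under 0.1. A pairing of these 2 groups is thus neither shown nor excluded. In the other comparisons with untreated lysate or within calcium, at most 1 library matched its own number best. Of 388 alternative values for summaries, 369 kept their call or count and 19 moved; of 1216 for single positions, windows and bases, 1155 kept their call, 39 lost it, 5 gained it and 17 turned sign, the last all by the rescaling. edgeR was not run where recovered reads were lacking. Low read numbers in the MnCl2 groups limit single positions outside 205 to 213.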
